A study of Sus scrofa with 15 samples.

Results

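A set of 6 genes commonly used to recognise mast cells, KIT, CPA3, FCER1A, MS4A2, HDC and GATA2, were followed in RNA-seq libraries of pig (Sus scrofa) penile corpus cavernosum, the erectile tissue of the penis. The members were taken by symbol, and all 6 were among the 26654 genes of the deposited tables. The study sampled 15 libraries in 5 groups of 3. The groups are named ECs+ implantation, implantation B, implantation A, defect and normal, and all carry the same tissue label. Its design text pairs implantation A, defect and normal in every combination, and pairs ECs+ implantation with implantation B. No strain, age, time point, graft material or expansion of "ECs" is given in the labels, and no genotype or drug is named. Whether replicate libraries stem from different animals is not stated, so p-values reflect only library-to-library spread, possibly technical.

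Mast cells are long-lived tissue immune cells that store histamine and proteases in granules and release them when IgE bound to their surface meets its antigen. The high-affinity IgE receptor, FcεRI, is built from an alpha chain (FCER1A) that binds IgE, a beta chain (MS4A2) that amplifies the signal, and a gamma chain (FCER1G) that many other myeloid cells share. KIT is the receptor for stem cell factor, on which mast cells depend for growth and survival. CPA3 is a granule protease, HDC makes histamine from histidine, and GATA2 is a transcription factor of the mast cell lineage. None of these genes belongs to mast cells alone. Endothelium also makes GATA2, melanocytes and interstitial cells of Cajal make KIT, basophils share most of the set, some dendritic cells carry FCER1A, and some myeloid cells make HDC.

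Levels between libraries are given as CPM (gene counts scaled to a common library size), scaled by TMM factors of all 15 libraries, and levels between genes as the deposited TPM, which allow for gene length. Of the 15 libraries, 13 held 17234169 to 19644793 gene counts. Defect 1 held 207769 and defect 2 held 250178, so that 3 counts, taken here as the floor, correspond to 14.4 and 12 CPM there against 0.153 to 0.174 CPM in the others. The count-based tests give these libraries little weight, whereas a mean over the defect libraries weights all 3 equally. In bulk tissue, fewer cells of a type and less RNA per cell cannot be told apart. Smooth muscle markers summed to 1863 to 4293 CPM and endothelial markers to 1515 to 3784 CPM over all libraries, on library totals, so these main cell types of erectile tissue were present. Epithelial markers were at 788 CPM or more in every library of the other groups and at 2.42 to 2.66 CPM in ECs+ implantation. Neutrophil markers were at 271 CPM or more against 3.26 to 3.83 CPM. In the other groups nearly all of the neutrophil sum was S100A8 and S100A9. With TMM factors these were at 67.6 and 180 CPM in normal against 0.0725 and 0.803 CPM in ECs+ implantation. CSF3R went the other way, at 0.549 against 2.02 CPM. Of the 5 neutrophil genes, 2 were higher and 2 lower in ECs+ implantation than in normal (71.3% of all genes called). All 4 tested were lower than in implantation B (38.1% of all genes). The part of these differences in the results below was not tested.

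The members did not move as one group. MS4A2 and FCER1A were high in implantation B and defect, KIT was high in implantation A, and GATA2 was high in ECs+ implantation and normal. HDC was low everywhere, and CPA3 was too low to judge. The genes are therefore called by their own names below rather than read as a measure of mast cells.

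**Figure D1:**
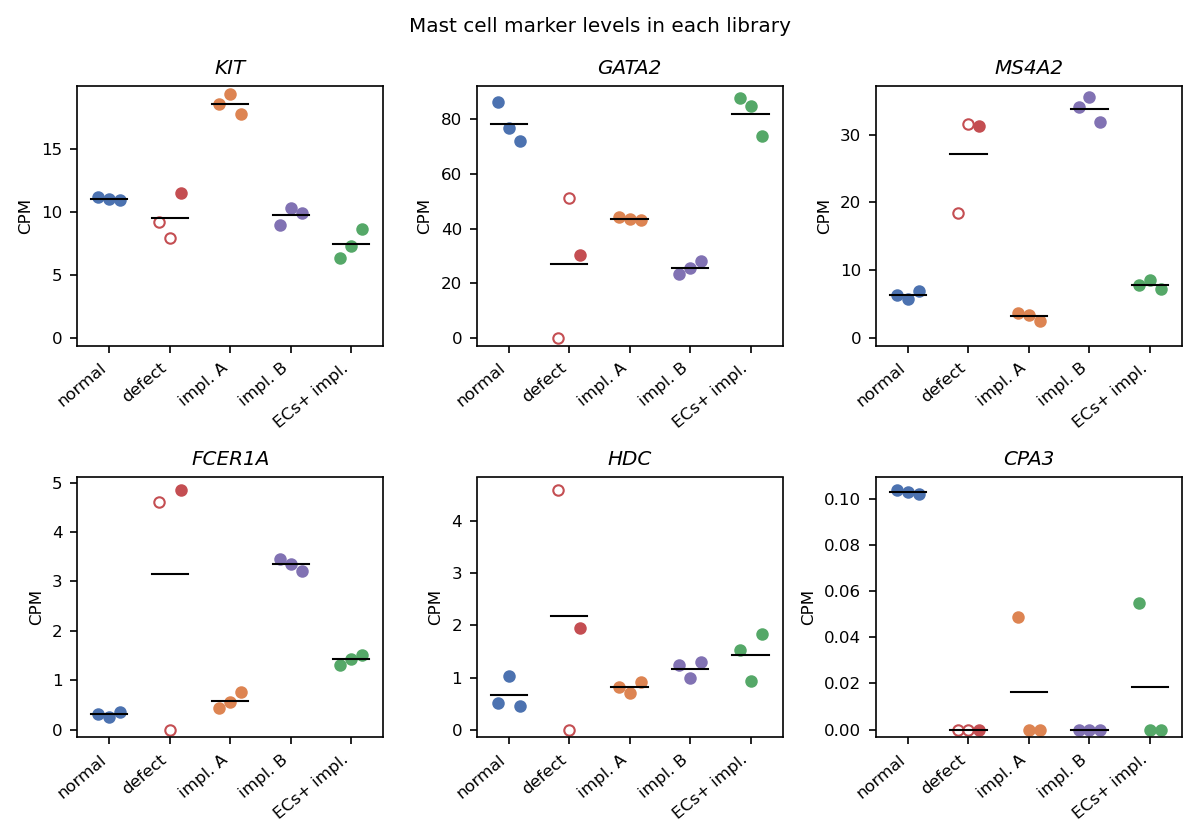
Levels of the 6 genes in each library, in CPM with TMM factors (vertical axes, a scale for each gene), by group. Points are libraries, open points are the shallow libraries defect 1 and defect 2, and lines are group means: MS4A2 sits at 31.8 to 35.5 CPM in implantation B and 7.18 to 8.59 CPM in ECs+ implantation, and KIT is highest in implantation A.

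KIT lies on chromosome 8 at 41402334 to 41492306 (Sscrofa11.1). It measured 17.7, 18.5 and 19.3 CPM in implantation A, 10.9, 11 and 11.2 CPM in normal, and 8.97, 9.94 and 10.3 CPM in implantation B. ECs+ implantation gave 6.35, 7.27 and 8.65 CPM, and defect gave 11.5 CPM in the deep library and 9.22 and 7.9 CPM, from 2 counts each, in the shallow ones. All implantation A libraries lay above every other library, and all ECs+ implantation libraries lay below all implantation B and normal libraries. KIT rose from normal to implantation A by 0.72 ± 0.10 on the log2 scale (SE here and below; adjusted p = 1.52e-09, edgeR quasi-likelihood with Benjamini-Hochberg adjustment over all genes, as for every adjusted p below unless another is named). It was higher in implantation A than in defect by 0.70 ± 0.15 (adjusted p = 8.85e-05), and did not pass between defect and normal (0.02 ± 0.16, adjusted p = 0.905). In ECs+ implantation it fell by 0.41 ± 0.13 against implantation B (adjusted p = 0.00371), a call that ended when libraries were scaled by their totals alone (-0.18, adjusted p = 0.207). Without defect 3, KIT in implantation A against defect was 1.10 and did not pass (adjusted p = 0.344), nor did it with limma-voom quality weights (0.72, adjusted p = 0.225).

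FCER1A, the IgE-binding chain, lies on chromosome 4 at 91118867 to 91125448. Its levels were 3.22, 3.36 and 3.46 CPM in implantation B, 1.31, 1.43 and 1.52 CPM in ECs+ implantation, 0.437, 0.554 and 0.765 CPM in implantation A, and 0.258, 0.312 and 0.357 CPM in normal. In defect, the deep library held 72 counts (4.86 CPM), whereas defect 1 held 1 count and defect 2 held 0, where 0.845 and 1.02 counts would be expected at the level of defect 3; FCER1A is too low to judge in those. Implantation B, ECs+ implantation, implantation A and normal did not overlap one another. FCER1A rose from normal to defect by 3.86 ± 0.43 (adjusted p = 2.92e-15) and was lower in implantation A than in defect by a log2 difference of -2.98 ± 0.36 (adjusted p = 5.96e-12). Both rest on defect 3: without it the values were 2.76 (adjusted p = 0.41) and -1.88 (adjusted p = 0.649). In ECs+ implantation FCER1A fell by 1.25 ± 0.24 against implantation B (adjusted p = 7.47e-06). Implantation A against normal did not pass (0.88 ± 0.44, adjusted p = 0.0612), though it did without implantation A replicate 1 (1.05, adjusted p = 0.0407).

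MS4A2, the beta chain of the same receptor, lies on chromosome 2 at 11400415 to 11420314 and was the best measured of the receptor's mast cell chains. It reached 31.8, 34.1 and 35.5 CPM in implantation B and 18.4, 31.6 and 31.2 CPM in defect 1, 2 and 3. Normal held 5.82, 6.29 and 6.98 CPM, ECs+ implantation 7.18, 7.83 and 8.59 CPM, and implantation A 2.55, 3.42 and 3.64 CPM. Every library of defect and implantation B lay above every library of the other 3 groups, and implantation A lay below all others. The shallow libraries gave 4 and 8 counts where 5.42 and 6.53 would be expected from defect 3. MS4A2 rose from normal to defect by 2.24 ± 0.16 (adjusted p = 1.2e-23) and was lower in implantation A than in defect (-3.25 ± 0.17, adjusted p = 3.83e-31) and in normal (-1.01 ± 0.16, adjusted p = 3.25e-08). In ECs+ implantation it fell by 2.13 ± 0.095 against implantation B (adjusted p = 7.87e-27).

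CPA3, the granule carboxypeptidase, lies on chromosome 13 at 89093296 to 89132088. It had 2 counts in each normal library, 1 count in 1 library each of implantation A and ECs+ implantation, and 0 in every library of defect and implantation B. It was removed by the filter on low counts and is too low to judge in every comparison. A count of 0 over the 3 libraries, read against the 3-count floor, allows up to 0.196 CPM in defect and 0.0619 CPM in implantation B, and the 6 counts of normal amount to 0.103 CPM with a 95% Poisson interval of 0.0378 to 0.224. Intervals and floors cover counting error only. The defect floor lies above the level of normal, so the 0 counts there do not place CPA3 below normal. CPA3 was too low to set against the pattern of MS4A2.

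HDC, the histamine-forming enzyme, lies on chromosome 1 at 121505677 to 121525416. It held 0.458, 0.52 and 1.03 CPM in normal, 0.705, 0.825 and 0.918 CPM in implantation A, 0.987, 1.24 and 1.29 CPM in implantation B, and 0.937, 1.53 and 1.83 CPM in ECs+ implantation. Defect 3 held 29 counts (1.96 CPM), and defect 1 and defect 2, at 1 and 0 counts, are too low to judge. The groups overlapped in most pairs. HDC rose from normal to defect (1.52 ± 0.41, adjusted p = 0.000987) and was lower in implantation A than in defect (-1.26 ± 0.40, adjusted p = 0.00803). Neither call held without defect 3 (1.66, adjusted p = 0.6, and -1.40, adjusted p = 0.714) or with DESeq2 (adjusted p = 0.124 and 0.267). Implantation A against normal (0.26 ± 0.35, adjusted p = 0.516) and ECs+ implantation against implantation B (0.27 ± 0.33, adjusted p = 0.455) did not pass.

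GATA2 lies on chromosome 13 at 71981139 to 71997626 and was, per length, the most abundant member in normal, implantation A and ECs+ implantation; in the deep defect library MS4A2 was at 13.2 and GATA2 at 12.6 TPM. It stood at 73.9, 84.7 and 87.8 CPM in ECs+ implantation, 72, 76.7 and 86.2 CPM in normal, 43.1, 43.7 and 44.3 CPM in implantation A, and 23.5, 25.7 and 28.2 CPM in implantation B. Defect 3 gave 30.4 CPM from 450 counts, while defect 1 gave 0 counts and defect 2 gave 13, where 5.28 and 6.36 would be expected; both fall outside their 95% Poisson ranges, and pooled they gave 28.4 CPM against 25.4 in defect 3, on library totals. ECs+ implantation and normal overlapped, and both lay above all other libraries. GATA2 fell from normal to defect by 1.40 ± 0.12 (adjusted p = 3.5e-15) and was lower in implantation A than in normal (-0.86 ± 0.075, adjusted p = 7.54e-15). Implantation A lay above defect (0.53 ± 0.12, adjusted p = 0.000277). That call was lost without defect 3 (0.64, adjusted p = 0.555) and with limma-voom quality weights (1.04, adjusted p = 0.275). It was also lost on log2(TPM + 1) by limma (1.74, adjusted p = 0.277), after thinning to the shallowest total (0.3, adjusted p = 0.727) and when at least 1.5-fold was required. In ECs+ implantation GATA2 rose by 1.64 ± 0.069 against implantation B (adjusted p = 1.05e-20).

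**Figure D2:**
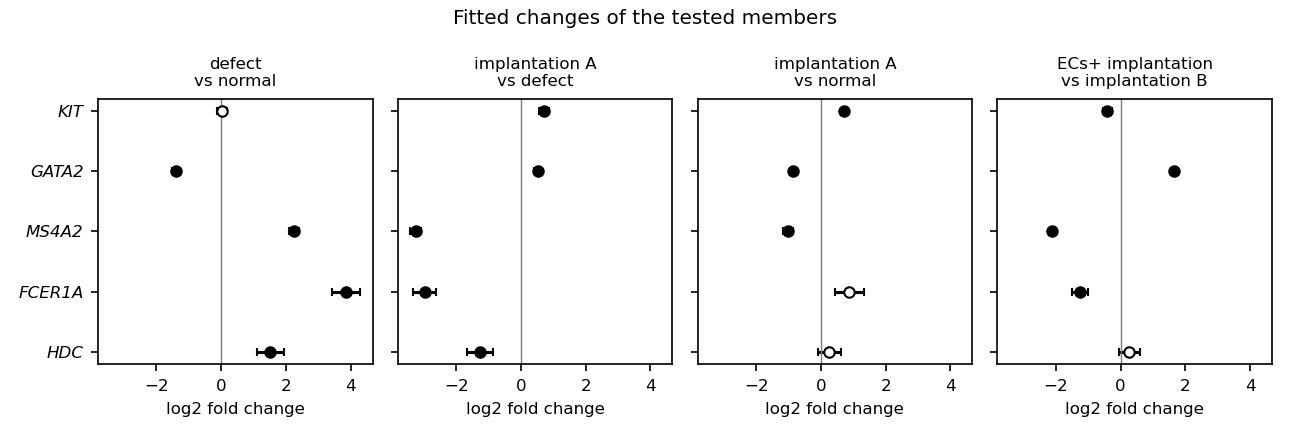
Log2 fold changes of the 5 tested members (horizontal axes) in the 4 pairs of the design text, from the edgeR quasi-likelihood fits, with bars of 1 standard error; filled points passed at an adjusted p of 0.05 and open points did not. MS4A2 moved by 2.24 in defect against normal and by -2.13 in ECs+ implantation against implantation B, while GATA2 moved by -1.40 and 1.64.

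By pair, with 5 members tested, defect against normal called 3 higher (FCER1A, MS4A2, HDC) and 1 lower (GATA2); of all 17855 genes, 32% were called higher and 31.9% lower. Implantation A against defect called 2 higher (KIT, GATA2) and 3 lower (FCER1A, MS4A2, HDC), beside 20.4% and 21.4% of all genes. Implantation A against normal called 1 higher (KIT) and 2 lower (MS4A2, GATA2), beside 32.2% and 32.3%. ECs+ implantation against implantation B called 1 higher (GATA2) and 3 lower (KIT, FCER1A, MS4A2), beside 37.8% and 38.1% of 17204 genes. A large share of all genes passed in each pair, so the member counts are descriptions. Without defect 3, the count fell to 2 in defect against normal and to 1, MS4A2, in implantation A against defect. The share of all genes called without defect 3 was not counted. On log2(TPM + 1), where shallow and deep libraries weigh alike, FCER1A (1.56, adjusted p = 0.185), HDC (0.59, adjusted p = 0.327) and GATA2 (-2.47, larger than in the count fit, adjusted p = 0.108) did not pass in defect against normal by limma. On the same scale MS4A2 (-0.63, adjusted p = 0.119) and GATA2 (-0.73, adjusted p = 0.751) did not pass in implantation A against normal. Scaling by library totals alone changed the balance of all calls in defect against normal from 50.1% to 28% higher, in implantation A against defect from 48.8% to 81.8%, and in ECs+ implantation against implantation B from 49.8% to 64%.

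All 5 groups were ordered by the mean CPM of their libraries, and neighbours were compared in a single fit of the 15 libraries. In that fit 42.7% of 18316 genes were called between implantation A and defect, 63.7% between implantation A and normal, and 73.3% between ECs+ implantation and implantation B. For KIT the order was implantation A, normal, implantation B, defect and ECs+ implantation. The step from implantation A to normal passed, those from normal to implantation B (adjusted p = 0.0978, though 0.0433 with DESeq2) and from implantation B to defect (adjusted p = 0.314) did not, and that from defect to ECs+ implantation did (adjusted p = 0.00109), though not without defect 3 (adjusted p = 0.858). The place of defect in this order comes from giving the 2-count libraries equal weight: pooled over its libraries defect stood at 11.4 CPM against 11 in normal and 9.74 in implantation B, and by TPM it also lay above implantation B. For FCER1A, implantation B led defect by mean CPM, but the fitted difference was -0.49 and did not pass (adjusted p = 0.204). Pooled over libraries, implantation B stood at 3.34 CPM and defect at 4.77 CPM. The steps from defect to ECs+ implantation (adjusted p = 1.46e-06, but 0.815 without defect 3) and ECs+ implantation to implantation A (adjusted p = 0.000233) passed. Implantation A to normal did not. For MS4A2, implantation B and defect likewise did not pass (adjusted p = 0.465), defect to ECs+ implantation did (adjusted p = 8.5e-22), and normal stood above implantation A. MS4A2 in ECs+ implantation exceeded normal by only 0.29 (adjusted p = 0.0374), a call lost with DESeq2 (adjusted p = 0.287) and when any of 5 single libraries was left out. No neighbouring step passed for HDC. For GATA2, ECs+ implantation and normal did not pass (adjusted p = 0.586), normal to implantation A and implantation A to defect (adjusted p = 0.00316) did, and defect to implantation B did not. By TPM, normal stood above ECs+ implantation for both MS4A2 and GATA2.

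Pairs outside the design text add the contrast of the implantation groups. From implantation A to implantation B, MS4A2 rose by 3.38 ± 0.13 (adjusted p = 1.41e-38) and FCER1A by 2.50 ± 0.30 (adjusted p = 3.78e-12), while KIT and GATA2 fell by 0.93 and 0.77, where 50.8% of all genes were called. Implantation B against normal called FCER1A (3.38), MS4A2 (2.38) and HDC (0.78, adjusted p = 0.0455, lost under several settings) higher and GATA2 (-1.63) lower, with 73.8% of genes called. None of the 5 tested members passed between implantation B and defect, where 29.5% of genes did. ECs+ implantation against normal called FCER1A, MS4A2 and HDC higher (2.16, 0.29 and 1.08) and KIT lower (-0.58), with 71.3% of genes called; the HDC call was lost with DESeq2 (adjusted p = 0.0594). Against implantation A, ECs+ implantation was lower for KIT (-1.31) and higher for FCER1A (1.28), MS4A2 (1.29), HDC (0.82, lost with DESeq2 at an adjusted p of 0.136) and GATA2 (0.91), with 70.4% called. Against defect it was lower for KIT, FCER1A and MS4A2 (-0.61, -1.71 and -1.96) and higher for GATA2 (1.45), with 62.3% called. Without defect 3 the values of KIT (-0.21, adjusted p = 0.858), FCER1A (-0.60, adjusted p = 0.815) and GATA2 (1.55, adjusted p = 0.083) no longer passed in that pair. KIT there was also lost on library totals (-0.35, adjusted p = 0.0562) and with voom weights (-0.58, adjusted p = 0.269), and FCER1A on log2(TPM + 1) by limma (-0.53, adjusted p = 0.632).

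On the length-scaled TPM, the balance between the receptors changed with the group. In normal, mean KIT was 5.32 TPM and MS4A2 3.15 TPM, and in implantation A they were 9.43 and 1.68 TPM. In implantation B the order turned, with MS4A2 at 15.2, FCER1A at 6.67 and KIT at 4.25 TPM, and in defect MS4A2 was at 13, FCER1A at 6.62 and KIT at 4.41 TPM. The defect means of FCER1A and KIT include shallow libraries with 2 counts or fewer. In the deep defect library MS4A2 was at 13.2, FCER1A at 9.02 and KIT at 4.71 TPM. In ECs+ implantation they lay close together, with MS4A2 at 2.91, KIT at 2.67 and FCER1A at 2.4 TPM. GATA2 ranged from 12 TPM in implantation B to 40.9 TPM in normal, and HDC was at 0.309 TPM in normal and 0.841 TPM in the deep defect library, its defect mean of 1.31 TPM resting on 1 count in defect 1. FCER1G, the gamma chain shared with other myeloid cells, was far above both partner chains, at 50.7 TPM in implantation A and 127 TPM in defect; it was singled out after its values were seen.

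**Figure D3:**
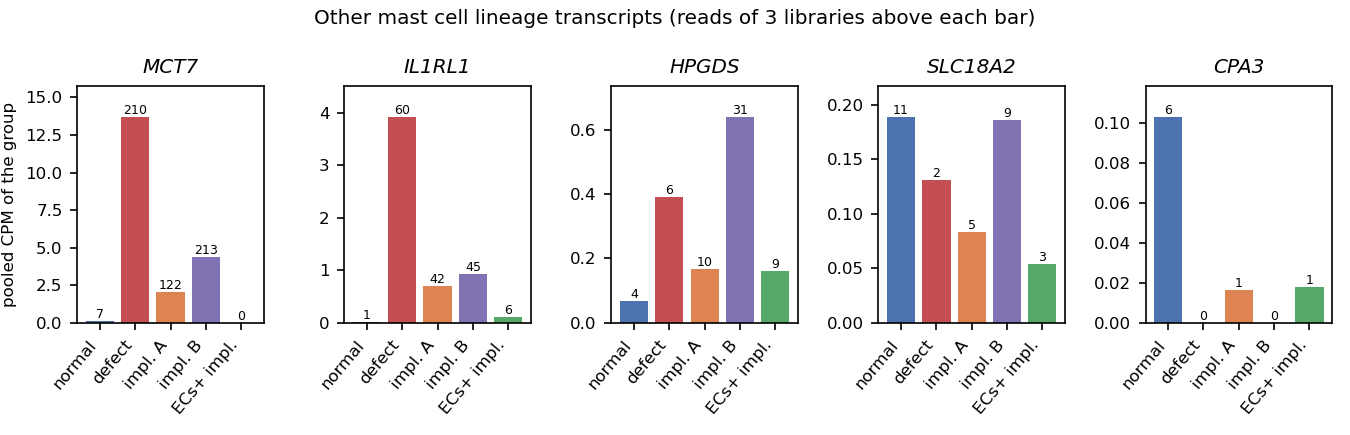
Pooled CPM (vertical axes, a scale for each gene) of MCT7, IL1RL1, HPGDS, SLC18A2 and CPA3 in each group, with the counts summed over its 3 libraries above each bar. MCT7 and IL1RL1 are highest in defect, MCT7 has 0 counts in ECs+ implantation, and HPGDS, SLC18A2 and CPA3 rest on 31 counts or fewer a group.

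Of 35 further genes listed for mast cell biology, 29 were in the tables under their symbols; TPSAB1, TPSB2, TPSD1, TPSG1, CMA1 and CTSG were not found under those names. Defect against normal called 13 of 24 tested genes higher and 6 lower, with a median of 0.49 against -0.05 over all genes, of which 32% were called higher and 31.9% lower. Most of the receptors and ligands (5 of 6) were higher, among them CSF2RB, the shared beta chain of the IL-3, IL-5 and GM-CSF receptors (3.11 ± 0.11, adjusted p = 2.66e-44), and IL4R, the interleukin-4 receptor (2.01 ± 0.089, adjusted p = 4.22e-36). RUNX1, a blood-lineage transcription factor, rose by 3.69 ± 0.11 (adjusted p = 1.37e-49), and the phospholipase PLCG1 fell by 2.10 ± 0.085 (adjusted p = 1.15e-36). FCER1G rose as well (1.52 ± 0.14, adjusted p = 2.49e-17). Without defect 3 the number higher was 6, and the share of all genes called in that setting was not counted.

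Implantation A against defect called 1 of 24 higher and 16 lower, with a median of -0.85, beside 20.4% and 21.4% of all genes. The 16 lower became 4 without defect 3, 4 after thinning, 5 to 8 on the TPM scales, 9 with voom weights and 10 with DESeq2. The shares of all genes called in these settings were not counted, so these falls are not read as particular to the listed genes. Those lower included CSF2RB (-2.28), RUNX1 (-1.75), IL4R (-1.60) and SRGN, the proteoglycan core of granules (-1.43), each past the threshold. The 1 higher gene became 6 when libraries were scaled by their totals, where 44.4% of all genes were called higher. Implantation A against normal called 8 of 24 higher and 11 lower with a median of -0.23, beside 32.2% and 32.3% of all genes. DESeq2 called 4 higher and 6 lower, and its share of all genes was not counted. PLCG1 (-1.49), PTGS1, the constitutive cyclooxygenase (-1.86), and TAL1, a blood and vessel transcription factor (-1.39), fell, and RUNX1 rose by 1.93. ECs+ implantation against implantation B called 14 of 25 higher and 7 lower, with a median of 0.54, beside 37.8% and 38.1% of all genes. TAL1 (2.09), LMO2, its partner (1.96), SRGN (1.47) and PLCG1 (0.92) rose, while 4 of 6 receptors and ligands fell, FCER1G slightly (-0.23 ± 0.086, adjusted p = 0.0137). KITLG, the stem cell factor gene, rose by 0.63 ± 0.087 there (adjusted p = 8.79e-09) and did not pass in implantation A against defect (0.00 ± 0.14, adjusted p = 0.991).

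**Figure D4:**
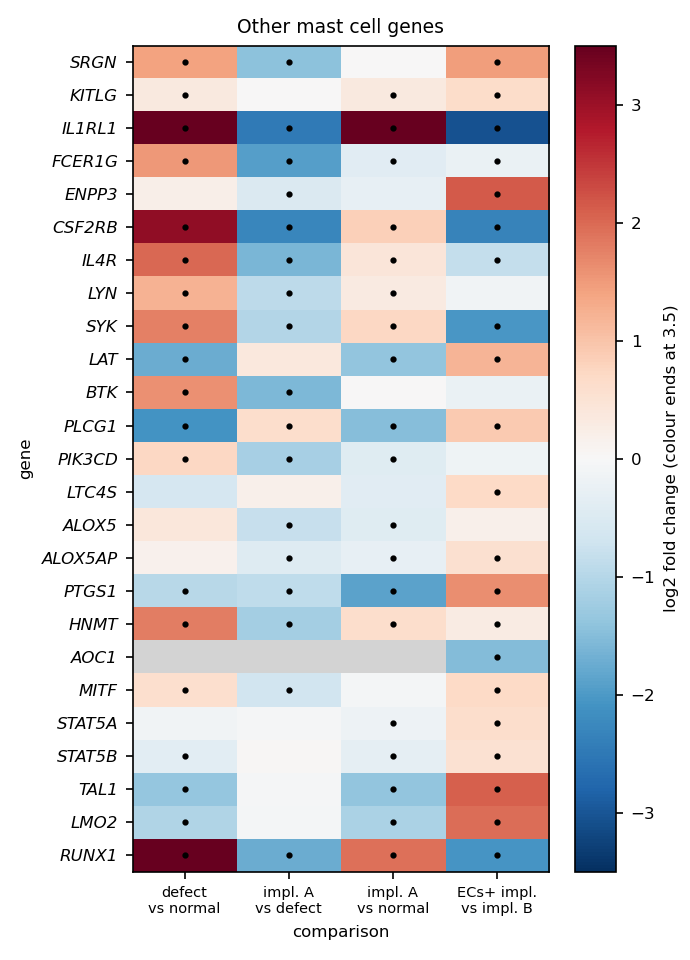
Log2 fold changes of the other mast cell genes (rows, those tested) in the 4 pairs of the design text (columns), as colour that ends at 3.5; dots mark an adjusted p under 0.05 in edgeR and grey marks genes not tested. In defect against normal 13 genes are higher with a dot, in implantation A against defect 16 are lower with a dot (4 without defect 3), and in ECs+ implantation against implantation B 14 are higher with a dot; the colour of IL1RL1 rests on few counts in normal and ECs+ implantation.

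A tryptase, the main class of mast cell granule protease, was present as MCT7, which the RefSeq gene table names as a pig mast cell tryptase. It was looked up after values were seen, so no test is given. It held 9.22, 11.9 and 13.8 CPM in defect, from 2, 3 and 205 counts, 4.33, 4.39 and 4.47 CPM in implantation B, and 1.76, 1.94 and 2.38 CPM in implantation A. Normal had 4, 0 and 3 counts, and ECs+ implantation had 0 in all 3 libraries. Pooled over libraries, MCT7 was 114 times as high in defect as in normal (95% counting interval 54.5 to 288) and 6.76 times as high as in implantation A (5.38 to 8.52). It was 36.6 times as high in implantation B as in normal (17.5 to 92.1), and at least 81.3-fold higher than in ECs+ implantation, against the floor of 3 counts over that group. IL1RL1, the interleukin-33 receptor ST2, followed a like pattern in pooled CPM. It was at 3.92 CPM in defect (60 counts), 0.929 CPM in implantation B (45) and 0.699 CPM in implantation A (42). Normal had 0.0172 CPM (1 count) and ECs+ implantation 0.108 CPM (6 counts). The IL1RL1 ratio of implantation B to ECs+ implantation was 8.59 (3.65 to 24.6). MCT7 was thus high in the groups where MS4A2 was high, but was also above normal in implantation A, where MS4A2 was lowest. Other listed mast cell genes with few counts had other orders. Pooled SLC18A2 and MRGPRX2 were highest in normal, at 0.189 and 0.566 CPM, against 0.131 and 0.523 CPM in defect. HPGDS was highest in implantation B, at 0.64 CPM from 31 counts, against 0.392 CPM in defect from 6 counts.

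Some lists of other cell types moved with a member, and others did not. Sums of lists are on library totals, whereas levels of single genes carry TMM factors, so a gene can exceed the sum of its list. Macrophage and monocyte markers summed to 544 to 632 CPM in defect and 504 to 506 CPM in implantation B, the groups with most MS4A2 and FCER1A, against 285 to 299 CPM in normal, 201 to 202 CPM in implantation A and 168 to 172 CPM in ECs+ implantation. All 7 of that list rose in defect against normal, where 32% of all genes did, and 6 of 7 fell in ECs+ implantation against implantation B, where 38.1% did. Endothelial markers, beside GATA2, summed to 3679 to 3784 CPM in normal and 3465 to 3536 CPM in ECs+ implantation, against 2075 to 2100 CPM in implantation A, 2094 to 2134 CPM in defect and 1515 to 1531 CPM in implantation B. Of the 8, 7 fell in defect against normal (31.9% of all genes) and 7 rose in ECs+ implantation against implantation B (37.8%). Melanocyte markers, beside KIT, summed to 33.4 to 35.5 CPM in implantation A, 25.7 to 27.8 CPM in normal, 18.9 to 20.6 CPM in implantation B, 9.76 to 13 CPM in ECs+ implantation and 4.81 to 17.4 CPM in defect. Most of this was SOX10, which Schwann cells also express, with a mean of 28.1 CPM in implantation A against 19.1 CPM in normal. In implantation A against normal 1 of the 6 melanocyte genes rose and 1 fell (median -0.15), beside 32.2% and 32.3% of all genes. The other 4 did not pass. Against defect 1 rose and 5 did not pass (median -0.23), where 20.4% of all genes rose and 21.4% fell. PMEL, a melanosome protein, measured 1.1 CPM in normal against 0.547 CPM in implantation A. Smooth muscle markers were also highest with KIT, at 4254 to 4293 CPM in implantation A, and summed to 1863 to 2780 CPM in the other groups. All 4 rose in implantation A against normal (32.2% of all genes) and against defect (20.4%). The interstitial cell of Cajal markers ANO1 and ETV1 summed to 104 to 107 CPM in implantation A, 91.6 to 102 CPM in ECs+ implantation, 83.9 to 101 CPM in defect, 76.9 to 78.6 CPM in implantation B and 61.6 to 70.1 CPM in normal. Both rose in implantation A against normal (32.2% of all genes), while against defect ANO1 rose (20.4%) and ETV1 fell (21.4%). The part of these cell types in the members' levels was not tested. The basophil and eosinophil list, beside GATA2, summed to 551 to 570 CPM in normal, 470 to 488 CPM in ECs+ implantation, 177 to 193 CPM in implantation A, 99.9 to 125 CPM in defect and 42.6 to 47.3 CPM in implantation B. Nearly all of it was IL3RA, the interleukin-3 receptor alpha chain, which endothelium also makes. Its TMM-scaled means were 506 CPM in normal and 49.4 CPM in implantation B. Within the same list EPX had at most 4 counts and CCR3 at most 10 counts in any library, and PRG2 was not found under that name. The sum was lowest in implantation B, where MS4A2 and FCER1A were high, but its low-count genes differed in direction. Pooled CCR3 was at 0.475 CPM in implantation B and 0.458 CPM in defect. It was at 0.0343 CPM in normal and 0.0499 CPM in implantation A, with 0 counts in ECs+ implantation. EPX was also highest in implantation B (8 counts), whereas IL5RA and CEBPE were highest in normal (pooled 0.995 and 0.378 CPM). Dendritic cell markers, beside FCER1A, summed to 59.6 to 69.8 CPM in normal and 18.9 to 22.1 CPM in implantation B. They stood at 38.1 to 39.8 CPM in ECs+ implantation, 34.5 to 38 CPM in implantation A and 7.99 to 43.3 CPM in defect. ZBTB46 made most of the sum in normal and implantation B, at 53.1 and 17.7 CPM. FLT3 went the other way, at 0.222 and 1.52 CPM. The part of these lists in the members was not tested.

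**Figure D5:**
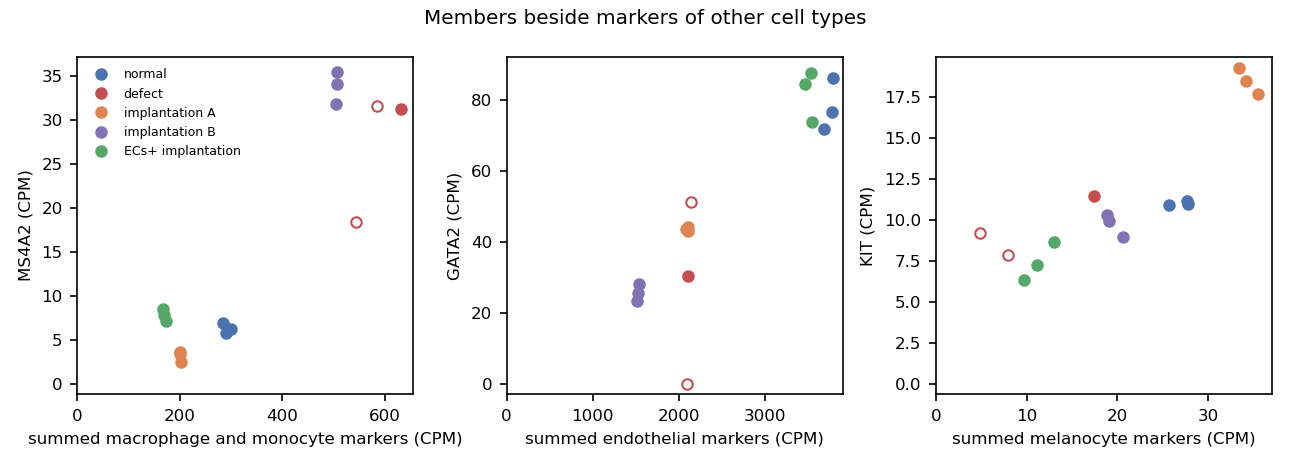
CPM of MS4A2, GATA2 and KIT (vertical axes) against the summed CPM of macrophage, endothelial and melanocyte markers (horizontal axes), with a point for each library, coloured by group, and open points for defect 1 and defect 2. Vertical axes carry TMM factors, whereas the sums are on library totals. GATA2 and the endothelial sum are both highest in normal and ECs+ implantation, MS4A2 and the macrophage sum in defect and implantation B, and KIT and the melanocyte sum in implantation A.

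Likeness between genes was measured as Pearson's r of log2(CPM + 0.5) over the 13 deep libraries, which fall into 5 groups and share their scaling, so r largely follows group levels and is given as a description. FCER1A and MS4A2, the chains of one receptor, had r = 0.88, FCER1A and HDC 0.7, and MS4A2 and HDC 0.46. KIT had -0.29 to -0.48 with the others, and GATA2 had -0.63 with MS4A2 and -0.69 with FCER1A. Of 13697 genes, those most like KIT were TMCC3 (0.973), CHST2 (0.969) and FLNA (0.967), and those most like FCER1A were RIN2 (0.989), APH1A (0.986) and SERTAD4 (0.984). MS4A2 was most like C4BPA (0.985), STEAP3 (0.984) and the complement gene C1QA (0.983). GATA2 was most like FUT1 (0.992), CENPV (0.989) and ISOC2 (0.989), and HDC was most like MSRA (0.9), CD1.1 (0.89) and PNP (0.883). No member was among another's 3 most alike genes.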

How the data were processed

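RNA was made into libraries with a TruSeq RNA kit, per the labels' protocols. Per the submitters' processing notes, the build was Sscrofa11.1 and the tools included HISAT2, HTSeq, fastp and DESeq2, with neither roles nor versions. The authors deposited raw counts per gene and TPM per gene for all 15 libraries, with no pooled columns. The strand setting was not stated in the labels or headers, so a gene's reads and those of an antisense partner cannot be told apart. Groups follow the sample titles, since descriptions of the ECs+ implantation samples also repeat the name of a normal library. No 2 count columns were identical.

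Counts were tested as deposited with edgeR 4.0.16 in R 4.3.3 (filterByExpr, TMM, robust quasi-likelihood, two-sided, Benjamini-Hochberg over all genes, threshold 0.05). One fit held the 9 libraries of normal, defect and implantation A (17855 genes), one the 6 of implantation B and ECs+ implantation (17204), and one all 15 (18316). The procedure was first tested on simulated data. Alternatives used DESeq2 1.42.0, limma 3.58.1 on log2(TPM + 1) or log2(TPM + 0.1), other scalings and filters, a thinning to the shallowest total, a replicate block, and left-out libraries. Coordinates come from the RefSeq gene table of the same build, in which 99.9% of symbols matched. The members and lists were chosen with earlier results of these data known. Members were named whatever their result, other listed genes by the 4 smallest p in each pair of the design text, and the genes most like a member by the 3 highest r among genes of at least 1 CPM; FCER1G, KITLG, IL1RL1, SOX10 and MCT7 were added after values were seen. Promoter sequences were not used here.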

Additional observations from a re-analysis of the deposited data

How the results depend on the processing

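Over 1085 alternative values of the members' log2 fold changes, 984 kept their direction and side of the threshold, 74 no longer passed, 6 newly passed and 21 reversed. Most reversals were of values near 0. KIT in defect against normal was -0.11 with DESeq2, -0.35 on library totals (adjusted p = 0.0406), -0.27 on log2(TPM + 0.1), -0.23 on log2(TPM + 1) with or without a filter, -0.10 with RLE factors and -0.37 without defect 3 (-0.37 to 0.05 over single libraries left out). KIT in implantation B against defect was 0.17 without defect 3. FCER1A in implantation B against defect was 0.64 on log2(TPM + 1) and 0.63 without defect 3 (-0.53 to 0.63 over single libraries left out). GATA2 in ECs+ implantation against normal was -0.05 with DESeq2, -0.06 on library totals, -0.51 on log2(TPM + 1), and -0.05 and -0.10 without normal 2 or normal 3 (-0.10 to 0.14 over single libraries left out). GATA2 in implantation B against defect was 0.79 on log2(TPM + 1) and 0.26 with voom weights. HDC in ECs+ implantation against implantation B was -0.22 and -0.08 on log2(TPM + 0.1) and log2(TPM + 1), and in implantation A against normal -0.08 with voom weights. MS4A2 in ECs+ implantation against normal was -0.09 on log2(TPM + 1).

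The number of members called in defect against normal, 4, became 1 on each TPM scale and 1 after thinning, and ranged from 2 to 4 when single libraries were left out. In implantation A against defect, 5 became 2 on each TPM scale, 2 with voom weights and 0 after thinning, and ranged from 1 to 5. In implantation A against normal, 3 became 1 on each TPM scale and 1 after thinning, and ranged from 3 to 4. In ECs+ implantation against implantation B, 4 became 1 after thinning and stayed at 4 when single libraries were left out. Thinning to the total of defect 1 took most members below the filter. The cause of the other shifts was not tested. The shares of all genes called in these settings were not counted, so the shifts are not read as particular to the members. Without both shallow libraries the counts were 4, 5 and 3, but defect is then a single library assumed to vary like the other groups. Over all tested genes, deviations of same-numbered libraries from their group means had r from -0.023 to 0.02. Counting noise enters these deviations, so an r near 0 cannot show whether the numbers mark a shared animal or batch. With the replicate block 49 of 50 fold changes kept their call, HDC in implantation B against normal becoming 0.76 (adjusted p = 0.0536).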
